A study of Homo sapiens with 22 samples.

Results

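The region described here is a 600 kb window on chromosome 10 that begins at 61550001 in hg38 and holds the protein-coding genes CABCOCO1 and ARID5B. It was chosen by its pooled insertion density, so every density given for it is a description and not a test. It comprises 120 bins of 5 kb, against 576641 bins of 5 kb on chromosomes 1 to 22 and X that hold at least 3 TTAA sites. The 20 libraries with a helper label placed 63613 insertions at its 4621 TTAA sites.

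The data are Calling Cards libraries from K562, a human leukemia cell line. Cells received 5 ug of a barcoded piggyBac donor that carries a self-reporting transposon and a puromycin marker, together with 5 ug of a helper plasmid that encodes the transposase. The helper was hyPBase (labelled WTHYPB) in 10 libraries and hyPBase-centrip (labelled WTHYPBcentrip) in 10 others, and nothing in the sources used here says how hyPBase-centrip was built. All cells were kept in puromycin at 2 ug/ml for 11 days. Transfections of 1 cell line were combined in sets of 3 per dish. Each library was taken here to be 1 such pool, so that the spread between libraries would be that between pools. No library without a transposase was analysed here, and 2 further libraries, whose labels name hyPBase-centrip in 1 field and WTHYPB in another, are given in the closing section only.

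PiggyBac integrates into TTAA, and a self-reporting transposon is read from RNA that runs out of the transposon into the flanking genome. Its insertions are not spread evenly over the genome, so they are counted here per TTAA site. CABCOCO1 encodes a coiled-coil protein associated with cilia. ARID5B encodes a DNA-binding protein of the AT-rich interaction domain family that works with the histone demethylase PHF2 and is studied in leukemia. Between them, on the opposite strand, lie the long noncoding RNA gene LINC02625 and a further such gene without a symbol, at 61900107 to 61900417.

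Each library held 1509672 to 3596762 insertions. The genome-wide mean over the 20 libraries was 2.74 insertions per TTAA site, and densities below are multiples of this mean. Most of the erythroid markers fixed as a check of the cell type had high densities. Within 10 kb of the gene bodies, TAL1 stood at 18.5, GATA1 at 11.2 and LMO2 at 11.4 times the mean. The GATA1 body alone, with 5 insertions at 3 TTAA sites, stood at 0.609. With the same 10 kb included, the 7 erythroid genes ranged from 2.31 for TFRC to 20.3. Of the markers of other cell types, PAX5, a B cell factor, stood at 0.713 times the mean, the keratin gene KRT5 at 0.512 and the liver gene ALB at 2.26.

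The sites that took most insertions are shown first because the ceiling on counts and the read depth of the stretch, both given below, turn on a few of them. The 6 TTAA sites of the dense stretch with most insertions and the leading site of ARID5B are given below on the plus strand of hg38, with the TTAA in capitals.
intergenic, chr10:61779672-61779701: aaaatcaagttctTTAAagaaaaaagtgtg
CABCOCO1 exon 8, coding, chr10:61765966-61765995: caggaagaggcctTTAAtgcacgaatagaa
CABCOCO1 intron 5, chr10:61751540-61751569: ttggggaaggtaaTTAAggaaaaataaatg
CABCOCO1 exon 8, untranslated, chr10:61766686-61766715: gtataaatggttaTTAAagaccaacctata
intergenic, chr10:61780809-61780838: cttaatttttcccTTAAagacagctgctgg
CABCOCO1 exon 8, untranslated, chr10:61766532-61766561: ttggttttcttatTTAAacgtttcagtgtg
ARID5B intron 2, chr10:61902523-61902552: atcgactccttttTTAAaggggtagcgcca

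The first site took 764 insertions, 600 were counted at the site in the coding part of CABCOCO1 exon 8, and 563 at the site in intron 5. The following 3 sites took 462, 457 and 403, and the site in ARID5B intron 2 took 331. Each of the 7 sites was hit in 20 of 20 libraries. Orientation differed among them: + insertions, as the files write the sign, made up 53.5% at the first site, 26.6% at the exon 8 site with 462 insertions and 9.37% at the ARID5B site. Of the 7 sequences, 3 hold the palindrome TTTAAA, namely the first, the exon 8 site with 403 insertions and the ARID5B site.

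A count at one site has a ceiling in these files, because an insertion is told from another at the same site only by its barcode and orientation. In the dense stretch 21 barcodes each made up at least 0.5% of the insertions, which gives 42 combinations of barcode and orientation per site in a library. The first site held 32 to 42 insertions in each hyPBase library and 36 to 41 in each hyPBase-centrip library. It was therefore at or near that ceiling. The ceiling holds for each orientation, at 21 barcodes in a library, so the 53.5% of + insertions at this site says little about orientation. At 16 sites of the stretch, 15 or more barcodes were counted at 1 orientation of 1 library.

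A dense stretch of 90 kb stood out within the window. It is the run of 5 kb bins, each at 5 times the genome mean or above, that holds the densest bin, and it reached from chr10:61740001 to 61830000. Its 18 bins and 686 TTAA sites took 37819 insertions, 59.5% of those in the window, or 55.1 per site and 20.1 times the mean. The window outside it had lower densities: 2.09 times the mean to the left and 2.62 to the right. In the 500 kb flanks beyond the window the density was 1.00 times the mean on the left and 0.686 on the right.

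**Figure D1:**
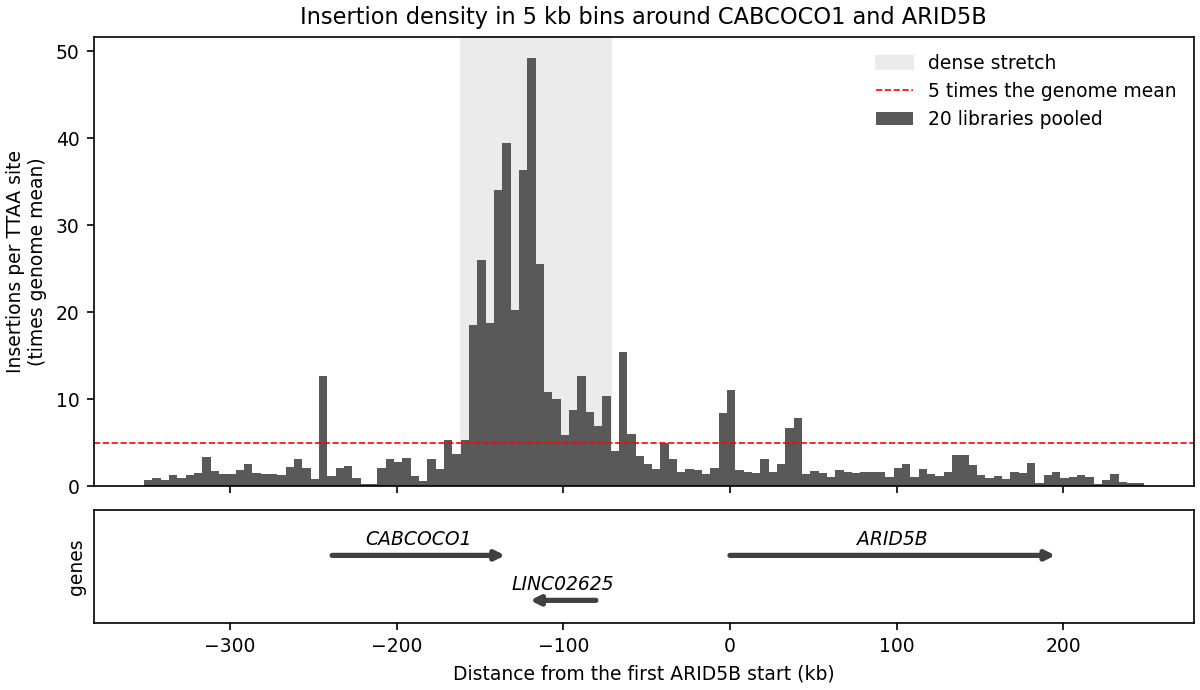
Insertions per TTAA site in the 120 bins of 5 kb, as multiples of the genome mean (20 libraries pooled), against the distance from the first ARID5B start in kb; grey marks the dense stretch, the dashed line is 5 times the mean and arrows show gene direction. The density peaks at 49.2 times the mean within the stretch, between CABCOCO1 and ARID5B, with smaller peaks near the ARID5B start.

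The stretch began inside CABCOCO1 and ended short of ARID5B. Its left edge lay 77.072 kb after the start of CABCOCO1, in intron 5, and it covered the last 26.766 kb of that gene with exons 6, 7 and 8. It ran 63.234 kb past the end of CABCOCO1 and contained LINC02625 whole. Its right edge lay 71.684 kb before the first start of ARID5B.

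The density was highest on both sides of the CABCOCO1 end. The densest bin, chr10:61780001-61785000, stood at 49.2 times the mean, 13.235 kb past the end of CABCOCO1, and it was the densest bin of the window in 20 of 20 libraries. The bins at 61760001 and 61765001, which hold CABCOCO1 exons 6 to 8, stood at 34.1 and 39.4 times the mean. From 61790001 to the right edge the bins fell to between 5.85 and 12.7.

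CABCOCO1 exon 8, the last exon, was the densest of the exons, introns and intervals measured in the stretch. Its 7 TTAA sites within 828 bases took 1862 insertions, or 266 per site and 97.2 times the mean. Intron 7 followed at 35.2 times the mean and the part of intron 5 inside the stretch at 16.3. The 14.978 kb between CABCOCO1 and LINC02625 stood at 31.2 and the LINC02625 body at 14.2. The first 77.072 kb of CABCOCO1, outside the stretch, stood at 2.27 times the mean, so the density of the gene lay mostly in its 3′ part.

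Both edges were ragged. On the left, the first bin inside stood at 5.28 times the mean and the bin just outside at 3.72, although the bin beyond that, at 61730001, reached 5.30. On the right, the last bin inside stood at 10.4 and the first outside at 4.10, and the next bin, at 61835001, rose again to 15.4. Taken one library at a time, the left edge fell at 61740001 in 11 libraries, at 61745001 in 8 and at 61730001 in 1. The right edge fell at 61830000 in 12 libraries, at 61800000 in 4 and between 61820000 and 61845000 in the other 4. The stretch was 55 to 100 kb long in single libraries, and the same 90 kb came from either helper alone.

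The edges depended on the threshold and the bin size. At 3 times the mean the stretch was 120 kb long, and at 10 times the mean 50 kb, from 61745001 to 61795000. With bins of 2 kb it was 48 kb and with bins of 10 kb 100 kb.

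Dense bins were found beyond the stretch as well. Of the 120 bins of the window, 27 were dense, 18 in the stretch and 9 outside, where 3.47% of all bins in the genome were dense. Of those outside, the bin at 61655001, upstream of the CABCOCO1 start, stood at 12.7 times the mean. The bin that holds the ARID5B start, 61900001, stood at 11.1, the bin before it at 8.44, and the bins at 61935001 and 61940001, at ARID5B exon 3, at 6.67 and 7.84.

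Most runs of dense bins were short. The genome held 12900 runs with a median length of 5 kb, and the CABCOCO1 stretch was the fourth by length, tied with a run at RAB31, TXNDC2 and VAPA on chromosome 18, and the fourth by insertions. A run of 125 kb lay at PRKAR2B on chromosome 7, and no run was longer. A run of 115 kb at CPED1 on chromosome 7 took 57863 insertions, and one of 85 kb lay at CPEB4 on chromosome 5. By density the stretch ranked 715th of the runs.

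CABCOCO1 and ARID5B bodies differed in density. Over the gene body CABCOCO1 stood at 7.59 times the mean and ARID5B at 2.28, against a median of 1.2 over 17489 protein-coding genes with at least 10 TTAA sites. Of those genes, 2.32% were at least as dense as CABCOCO1 and 21.4% at least as dense as ARID5B. The protein-coding neighbours outside the window were less dense than CABCOCO1: RHOBTB1 stood at 4.75, TMEM26 at 0.737, RTKN2 at 0.861 and ZNF365 at 0.656. The ARID list holds genes of the ARID family, among them the histone demethylases KDM5A, KDM5B and KDM5C, and the ARID5B partner PHF2. Over its 15 genes, densities ran from 0.428 for KDM5A to 4.97 for ARID1A, with a median of 1.64.

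The promoters of both genes are shown because the insertion density around them differed. They are RefSeq sequences on GRCh38.p14, from 250 bases before to 50 bases after the annotated start, with any TTAA in capitals.
CABCOCO1 promoter, chr10:61662679-61662978: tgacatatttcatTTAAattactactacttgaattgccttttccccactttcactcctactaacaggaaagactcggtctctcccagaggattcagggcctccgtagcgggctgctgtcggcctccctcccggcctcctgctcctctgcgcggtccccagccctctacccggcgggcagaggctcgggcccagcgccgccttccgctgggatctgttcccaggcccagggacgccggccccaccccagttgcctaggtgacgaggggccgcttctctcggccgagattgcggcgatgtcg
ARID5B promoter, chr10:61901449-61901748: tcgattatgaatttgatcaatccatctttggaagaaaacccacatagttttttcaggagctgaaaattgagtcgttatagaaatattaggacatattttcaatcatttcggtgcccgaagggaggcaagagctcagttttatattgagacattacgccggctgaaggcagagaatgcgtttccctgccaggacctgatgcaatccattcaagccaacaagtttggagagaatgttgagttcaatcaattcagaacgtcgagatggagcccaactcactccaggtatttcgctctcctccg

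The CABCOCO1 promoter window holds 1 TTAA and the ARID5B window none, and 46.1% of 35116 RefSeq promoter windows of this length hold at least 1. Within 1 kb of the first CABCOCO1 start, 19 TTAA sites took 76 insertions, 1.46 times the mean. Within 1 kb of the first ARID5B start, 7 TTAA sites took 436 insertions, 22.8 times the mean, and 331 of these were at the intron 2 site shown above. The inner ARID5B starts at 62046662 and 62049211, which begin shorter transcripts, stood at 1.98 and 4.18 times the mean in the same span. Of the ARID5B introns, intron 1, with 92 insertions at only 2 sites, stood at 16.8 times the mean, intron 2 stood at 3.41 times the mean, introns 3 and 4 at 2.21 and 2.18, and intron 9 at 0.418.

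Nearly every site of the stretch was used. Of its 686 TTAA sites, 655 (95.5%) took at least 1 insertion and 164 (23.9%) were hit in all 20 libraries, with a median of 25 insertions per site. The 69 sites with most insertions held 45.7% of the insertions. Outside the stretch, 76.5% of the 3935 sites of the window were hit, and 38 of them in all 20 libraries. In the ARID5B body 77.3% of the 1456 sites were hit and 13 were hit in all 20 libraries.

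**Figure D2:**
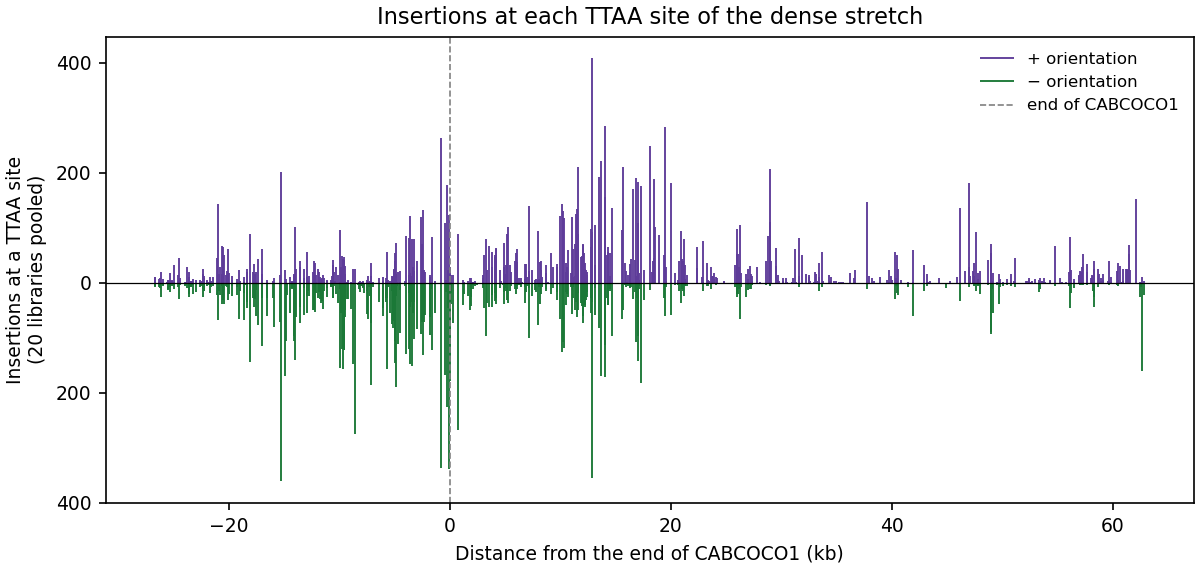
Insertions at each of the 686 TTAA sites of the dense stretch (20 libraries pooled), + orientation upward and − orientation downward, against the distance from the end of CABCOCO1 in kb. In sum − insertions prevail left of the gene end and for the next 2.443 kb and + insertions beyond that, with sites of the other kind in both parts. The tallest site took 764 insertions in nearly equal orientations, at or near the ceiling on its count.

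The more frequent orientation differed between the part of the stretch within CABCOCO1 and the part downstream of it. In the part of the stretch within CABCOCO1, which is transcribed on the plus strand, + insertions made up 29.6% at lowest, 32.9% at the median and 35.5% at highest in the 10 hyPBase libraries, and 30.0%, 33.2% and 34.8% in the 10 hyPBase-centrip libraries. In the part downstream of CABCOCO1 they made up 64.1%, 65.3% and 67.5% with hyPBase and 62.4%, 64.7% and 67.9% with hyPBase-centrip. All 20 libraries lay below 50% on the left and above it on the right, and the 2 parts did not overlap.

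The means were 33.0% ± 2.06 (SD, n = 10) and 33.0% ± 1.48 (SD, n = 10) within CABCOCO1, and 65.7% ± 1.12 and 65.0% ± 1.54 downstream. In the ARID5B body, also on the plus strand, they were 30.9% ± 3.07 with hyPBase and 34.5% ± 2.09 with hyPBase-centrip. All of these 6 shares differed from 50% at p = 0.00195 by a two-sided exact sign-flip permutation test over libraries, the smallest p that 10 libraries can give, and at an adjusted p of 0.00293 over the 15 tests of single values made (Benjamini-Hochberg).

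The turn lay past the annotated end of CABCOCO1. The 17 sites hit in the first 2.443 kb after the gene each had more − than + insertions, 210 + and 1008 − in all (17.2% +), and the first site with a + majority stood 3.055 kb after the gene end, at 61769821. From that site to the right edge 68.1% were +. These limits were read from the data and are a description. The 6 bins of the stretch that start left of the CABCOCO1 end held 24.5% to 48.6% + insertions over both helpers. The 12 bins to its right held 49.7% to 96.8%, and 1 of them was below 50%. The bin with 96.8%, 61795001, lies in LINC02625. The files give each insertion its orientation, and whether a library's yield depends on it was not tested. The share was also taken by the side on which the nearer run of at least 10 adenines lay. Within CABCOCO1 it was 32.4% where the run lay on the plus side and 34.7% on the minus side. Downstream it was 66.2% and 64.5%, and in the ARID5B body 34.2% and 31.6%. These shares are pooled, and their difference by side was not tested.

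**Figure D3:**
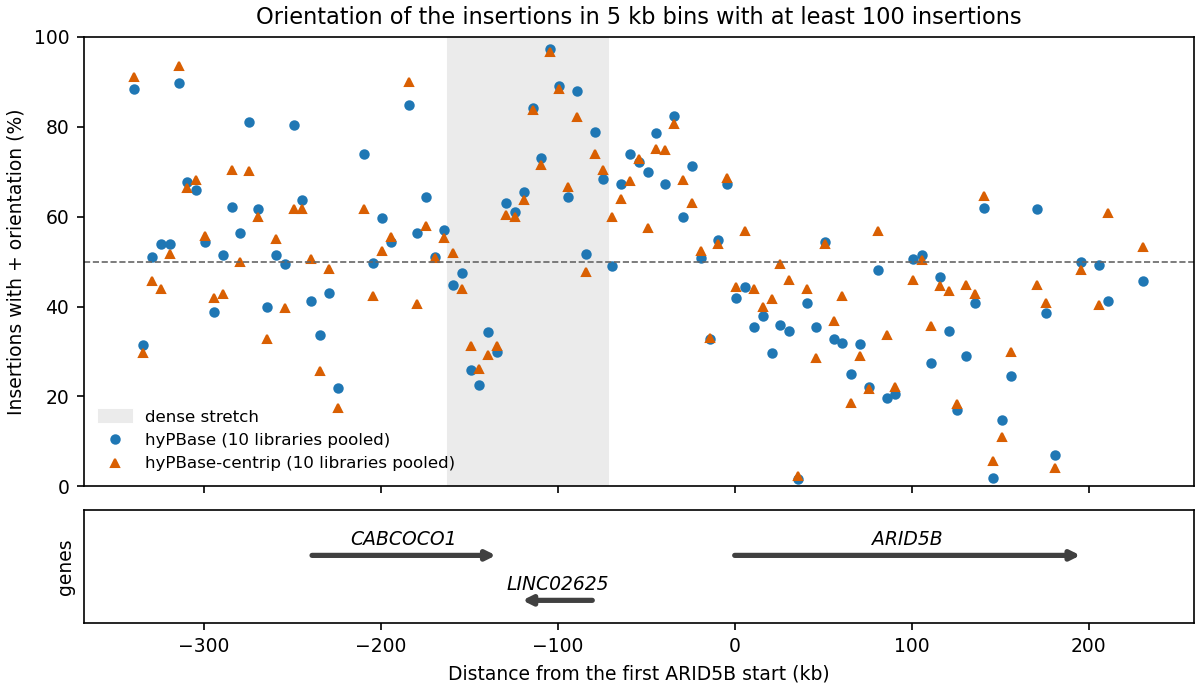
Share of + insertions in each 5 kb bin with at least 100 insertions, for the 10 libraries of each helper pooled, against the distance from the first ARID5B start in kb; the dashed line is 50% and grey marks the dense stretch. The share lies below 50% in the 6 left bins of the stretch except for hyPBase-centrip in the first of them, at 51.8%, above it in most bins from there to ARID5B, and mostly below it in the ARID5B body.

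Genes on opposite strands had opposite shares. LINC02625, on the minus strand, held 76.3% ± 1.49 + insertions with hyPBase and 75.0% ± 2.06 with hyPBase-centrip, over 50% in 20 of 20 libraries. The interval between CABCOCO1 and LINC02625 held 56.4% ± 1.75 over all 20 libraries, and that between the stretch and ARID5B 66.5% ± 2.47. So in CABCOCO1 within the stretch, LINC02625 and ARID5B alike, the more frequent orientation was opposite to the annotated strand of the gene. The part of CABCOCO1 before the stretch did not show it: there the share was 50.4% ± 4.40, with 10 libraries below 50% and 10 above. How common such an opposite excess is among all genes is not given here, and its link to the strand was not tested.

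In ARID5B, − insertions prevailed at the annotated starts. Within 1 kb of the first start, + insertions made up 9.87% ± 5.24 over the 20 libraries, from 0.0% to 22.2%, on 9 to 27 insertions per library. Most of these were at the intron 2 site shown above, with 31 + and 300 − insertions. The 2 sites of intron 1, with 92 insertions, held 9.78% +. The bin at 61935001, in intron 2 before exon 3, held 2.04% + insertions, and its site at 61939355 took 164 insertions of which none was +. Within 1 kb of the inner start at 62049211 the share was 1.25%.

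Of the 128 sites of the window with at least 100 insertions (107 in the stretch and 21 outside), 15 held at least 90% or at most 10% + insertions. The 8 such sites with a + excess in the stretch all lay downstream of CABCOCO1. Of the 3 with a − excess in the stretch, those at 61751958 and 61758195 lay in CABCOCO1 intron 5 and that at 61829396 lay next to the right edge. Outside the stretch 1 site had a + excess and 3 had a − excess. The site with the + excess, at 61900335 just before ARID5B, took 136 insertions, all +. It lies in the long noncoding RNA gene without a symbol, on the minus strand. The share of such sites over the genome is not given here.

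The levels of the stretch with the 2 helpers differed by less than the spread between libraries. With hyPBase the stretch took 694 insertions per 1000000 in the library (CPM) in the lowest library, 733 at the median and 763 in the highest, and with hyPBase-centrip 667, 731 and 782. The 2 helpers overlapped over nearly their whole range. The means were 730.8 ± 21.5 (SD, n = 10) and 725.3 ± 31.9 (SD, n = 10), a difference of -5.50 ± 12.2 (SE, hyPBase-centrip minus hyPBase; permutation test, two-sided p = 0.656). Counting error alone would give SDs of 17.7 and 16.6, from 1152 to 2399 insertions in the stretch per library. Scaled to the rest of the window instead of the library, the stretch was lower with hyPBase-centrip, with a difference of -7.38 insertions per 100 others (permutation test, Benjamini-Hochberg adjusted p = 0.0293).

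For the ARID5B body the values were 158, 174 and 186 CPM with hyPBase and 159, 177 and 186 with hyPBase-centrip, again overlapping. The means of 172.5 ± 9.78 and 175.1 ± 8.83 differed by 2.59 ± 4.17 (SE; permutation test, two-sided p = 0.536). With each position and orientation counted once per library, the difference was 7.52 CPM with an adjusted p of 0.0478 (permutation test, Benjamini-Hochberg).

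**Figure D4:**
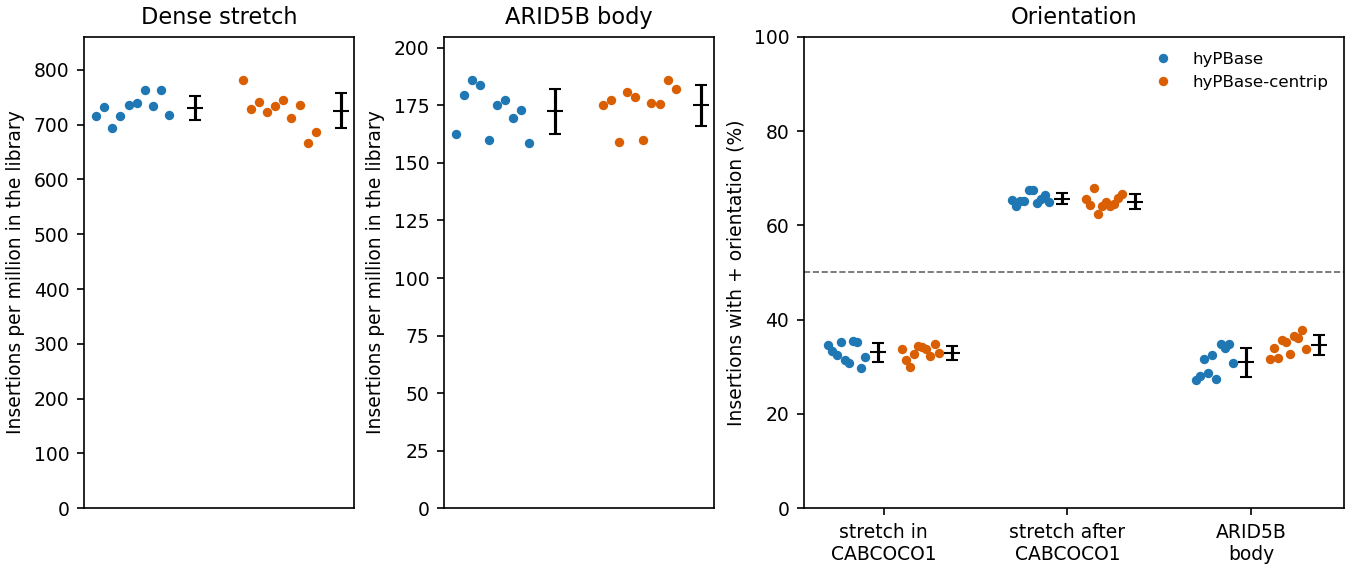
Insertions per 1000000 in the library in the dense stretch and in the ARID5B body, and the share of + insertions in 3 segments, for each library (points, 10 per helper) with mean ± SD (black). The helpers overlap in every panel; in the ARID5B body the share of + insertions is 3.59 percentage points higher on average with hyPBase-centrip.

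Orientation in the stretch differed between the helpers by less than the spread between libraries: the difference was -0.0347 ± 0.804 percentage points within CABCOCO1 (permutation p = 0.970) and -0.657 ± 0.602 downstream (permutation p = 0.290). In the ARID5B body, hyPBase-centrip had more + insertions by 3.59 ± 1.17 percentage points (SE; permutation test, two-sided p = 0.0079, Benjamini-Hochberg adjusted p = 0.0108). The helpers overlapped, at 27.1% to 34.9% against 31.6% to 37.8%. The difference fell to 2.17 points with an adjusted p of 0.327 when insertions needed at least 2 reads. Reads moved with the helper too, at 3.87 ± 0.732 per insertion in whole hyPBase libraries and 3.00 ± 0.540 in hyPBase-centrip libraries, and their part in the difference was not tested.

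Bin by bin, 1 of the 64 bins that passed the filter was higher with hyPBase-centrip, where 0.512% of the 56017 tested bins of the genome were higher. None was lower, where 0.994% were lower in the genome (edgeR quasi-likelihood test, Benjamini-Hochberg). At an unadjusted p under 0.05 there were 8 of the 64 bins, where 13.6% of all tested bins were under it (edgeR). DESeq2 called 1 bin of the 64, where it called 0.727% of all tested bins. The bin, chr10:61895001-61900000, lies just before the ARID5B start. It took 8.33, 14.5 and 16.5 CPM (lowest, median, highest) with hyPBase and 15, 18.2 and 21.3 with hyPBase-centrip, so that the helpers overlapped only between 15 and 16.5. The log2 fold change was 0.38 ± 0.096 (SE), with an edgeR adjusted p of 0.0194.

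This call did not hold under each setting: its adjusted p was 0.0595 (edgeR) with the number of insertions of the library as a term, and with each position and orientation counted once per library its log2 fold change was -0.03. With at least 2 reads, and with that term, the bin called was instead 61810001, in the stretch, at 0.44 and 0.45. In the fit of all insertions bin 61810001 had a log2 fold change of 0.34 and an edgeR adjusted p of 0.0714, and bin 61850001, between the stretch and ARID5B, 0.56 and 0.134. The lowest p among bins with a lower value with hyPBase-centrip belonged to 61935001 in ARID5B, at -0.25 with an edgeR adjusted p of 0.221, followed by 61775001 at -0.09 and 61750001 at -0.11.

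None of the 18 bins of the stretch passed, 10 being higher and 8 lower with hyPBase-centrip, and 3 of the 18 had an unadjusted p under 0.05 (edgeR), against 13.6% of all tested bins; DESeq2 called none of them either. Between the stretch and ARID5B, the level was 117 ± 7.99 CPM with hyPBase, from 103 to 134, and 133 ± 7.45 with hyPBase-centrip, from 122 to 143. This interval was picked out after its values were seen and was not tested.

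**Figure D5:**
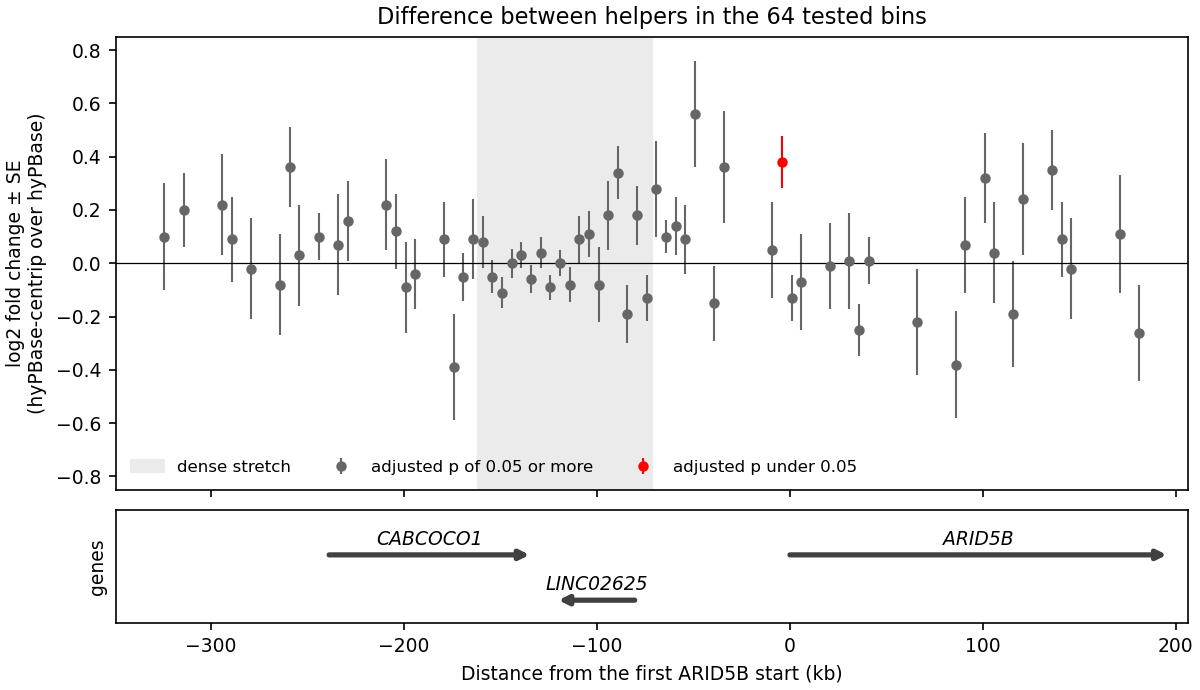
Log2 fold change ± SE of hyPBase-centrip over hyPBase (edgeR) in the 64 tested bins, against the distance from the first ARID5B start in kb. The bin in red, just before ARID5B, is the bin with an adjusted p under 0.05, at 0.38, and the 18 bins of the stretch lie between -0.19 and 0.34.

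Over whole gene bodies, neither CABCOCO1, at a log2 fold change of -0.02 ± 0.027 (SE) with an adjusted p of 0.731, nor ARID5B, at 0.02 ± 0.034 with 0.804, passed the test (edgeR, Benjamini-Hochberg). Among the 13 of 15 genes of the ARID list that were tested, 0 passed by edgeR and 0 by DESeq2. Of all 12865 genes tested, 2.39% passed in either direction by edgeR, and DESeq2 called 136 lower and 55 higher. ARID1A alone of the list had an unadjusted p under 0.05 (edgeR), at -0.09, where 1951 of the 12865 genes were under it. ARID3C and ARID5A had too few insertions to be tested. The 4 neighbours gave 0 calls by either tool, and 0 had an unadjusted p under 0.05.

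Insertions of the stretch were read a little more deeply than the rest of each library. With hyPBase the log2 ratio of mean reads per insertion was 0.00298, 0.08 and 0.20 (lowest, median, highest) and with hyPBase-centrip 0.10, 0.17 and 0.42. All 20 libraries were above 0. The means were 0.09 ± 0.061 and 0.19 ± 0.091 (SD), each at an exact sign-flip permutation p of 0.00195 and an adjusted p of 0.00293. Against the rest of the window instead of the library, the means were 0.36 and 0.46 (exact permutation, adjusted p = 0.00293 each). The values against the library rested on a few sites. The first site had 19.5 reads per insertion, and without it the means were -0.03 (exact permutation, adjusted p = 0.306) and 0.05 (adjusted p = 0.0234), while without the 6 sites of the stretch shown above both turned negative and passed, at -0.10 (adjusted p = 0.00651) and -0.04 (adjusted p = 0.0213).

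TTTAAA sites took more insertions than other TTAA sites. In the stretch, 127 TTTAAA sites took 84.6 insertions each and the others 48.4. The log2 ratio was 0.81, 0.86 and 0.96 (lowest, median, highest) over hyPBase libraries and 0.68, 0.74 and 0.84 over hyPBase-centrip libraries, with means of 0.87 ± 0.050 and 0.75 ± 0.047 (SD, n = 10), each at an exact sign-flip permutation p of 0.00195. Every library was above 0, and the helpers overlapped over a narrow range. Genome-wide the same ratio was 0.96 ± 0.00648 with hyPBase and 0.95 ± 0.00776 with hyPBase-centrip. The stretch lay below its library's genome-wide ratio in 20 of 20 libraries, by 0.09 and 0.20 on average, a comparison added after the values were seen (exact sign-flip permutation p = 0.00195 for each helper, adjusted p = 0.0026 over the 4 tests added). The size of this gap depended on the counting. With at least 2 reads it was -0.05 with hyPBase (exact permutation, adjusted p = 0.0508) and -0.15 with hyPBase-centrip, and with at least 3 reads -0.02 (adjusted p = 0.365) and -0.09. With barcodes collapsed it was -0.34 and -0.40, without the leading site -0.19 and -0.30, and in the stretch at 10 times the mean -0.22 and -0.32. The ceiling on insertions per site lies where such sites are dense, and its part in the lower ratio was not tested.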

How the data were processed

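Insertions were mapped in 22 K562 libraries, of which the labels place 10 with hyPBase and 10 with hyPBase-centrip. The submitters' processing notes name Trimmomatic, BWA and SAMtools and the build hg38; versions are not given in the sources used here. In the deposited files each line is 1 insertion with its position, the authors' read count for it, its orientation and its barcode, and no line was pooled across libraries. Every line counted as 1 insertion, positions were set against the TTAA sites of hg38, and genes came from GENCODE 44. The members and lists were chosen with earlier results of these data known.

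The dense stretch is the run of 5 kb bins at 5 times the genome mean or above. Bins and protein-coding gene bodies that reached 10 insertions in 10 libraries or more were tested with edgeR 4.0.16 (TMM, quasi-likelihood, helper as the term) with Benjamini-Hochberg adjustment, in R 4.3.3, and DESeq2 1.42.0 was an alternative. Single values were tested over libraries with permutation tests (100000 resamples, or exact sign flips). Genes named are CABCOCO1, ARID5B, 4 neighbours, the ARID list and markers; bins named are those of the stretch and the 3 of lowest p in each direction; sites named are the 6 with most insertions, with further bins and sites named after their values were seen. On simulated counts edgeR recovered 56% of bins changed 1.5-fold and 81% changed 2-fold, with 6 false among 143 calls. Same-numbered libraries did not deviate together (correlations from -0.0291 to 0.0539), so the numbers were not used as pairs. The 2 libraries with no group entered no comparison. Values for 1 marker gene and 1 dense run elsewhere are not reported here. With 1509672 to 3596762 insertions per library, the stretch rests on 1152 to 2399 insertions and the ARID5B body on 261 to 669 in each, and intervals from such counts cover counting error only. Reads per insertion are from PCR without molecular identifiers.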

Additional observations from a re-analysis of the deposited data

Results flagged for a closer look

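In the ratio of reads per insertion between the dense stretch and the rest of the library, hyPBase-centrip replicate 1 stood apart from the other 9 of its helper, with a log2 ratio of 0.42 against 0.23 for the next library. Among 16 groups checked, chance alone would set about 1 in 20 apart in this way.

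The preference for TTTAAA over other TTAA sites in the stretch was lower with hyPBase-centrip than with hyPBase by 0.11 ± 0.022 on the log2 scale (a difference of -0.113; permutation test, two-sided p = 1e-04, adjusted p = 0.0004 over the 4 tests added after the values were seen). It was -0.0621 with an adjusted p of 0.109 (permutation test) when insertions needed at least 3 reads. The log2 ratio of reads per insertion between the stretch and the rest of the library was higher with hyPBase-centrip by 0.105 ± 0.0345 (permutation test, two-sided p = 0.00286, adjusted p = 0.00286). The share of + insertions in the ARID5B body was 3.59 percentage points higher with hyPBase-centrip, as given above.

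The 2 libraries whose labels name a different helper in different fields placed 590.6 and 632.6 insertions per 1000000 (CPM) in the dense stretch. The 20 assigned libraries ranged from 667 to 782, so both lay below all of them. The names of their files also carry the term ClarkMut, which the other 20 lack and the sources used here do not explain; with no group label no test was made.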

How the results depend on the processing

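Beside the stretch lengths given above (120, 50, 48 and 100 kb), 3 helper differences that did not pass changed sign. For the stretch the difference in CPM was 6.66 with at least 2 reads and 17.6 with at least 3, and -11.8 to 0.979 leaving out 1 library at a time. For ARID5B it was -0.182 with at least 2 reads and 1.03 to 4.34 leaving out 1 library, and 7.52 with barcodes collapsed, where it passed. Scaled to the rest of the window, the stretch differed by -7.38 insertions per 100 others (permutation test, adjusted p = 0.0293), and the part of library size in this was not tested. The share of + insertions within CABCOCO1 differed by 0.673 points with barcodes collapsed and by -0.411 to 0.300 leaving out 1 library. In ARID5B it differed by 2.17 with at least 2 reads and 1.72 with at least 3, neither passing, and by 3.17 to 4.03 leaving out 1 library, always passing. Read depth against the rest of the library was 0.0329 with hyPBase at 3 reads, not passing; without the leading site it was -0.026 with hyPBase, and without the leading 6 the values were -0.103 for hyPBase and -0.0441 for hyPBase-centrip. The + shares against 50% and the TTTAAA ratios in the stretch kept their direction and passed under each alternative run. With barcodes collapsed the + shares lay nearer 50%. With hyPBase and hyPBase-centrip they were then 40.8% and 41.5% within CABCOCO1, 61.15% and 60.4% downstream, and 35.3% and 38.4% in ARID5B.

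Over the genome, 844 bins were called by edgeR. DESeq2 called 407, no filter gave 227 and barcodes collapsed 0 (1001 at an unadjusted p under 0.05). In the window, no filter, barcodes collapsed and 10 kb bins gave 0. Of gene bodies, 307 were called, with the library size term 539, with DESeq2 191 and with barcodes collapsed 21. With the replicate block, 796 bins and 292 gene bodies were called, the bin before ARID5B among them at 0.40 (edgeR adjusted p = 0.016). CABCOCO1 changed sign, to 0.0216, with at least 2 reads, and the bin before ARID5B, to -0.0267, with barcodes collapsed. The causes were not tested.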

Other observations

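In the 2 libraries with no assigned group, orientation and the ARID5B level lay near those of the others. The share of + insertions was 32.8% and 32.2% in the part of the stretch within CABCOCO1, 64.3% and 66.2% downstream of CABCOCO1, and 35.4% and 33.3% in the ARID5B body. The ARID5B body took 172.2 and 189.3 CPM, and the stretch made up 54.9% and 54.4% of the insertions of the window, against 56.8% to 61.3% in the 20 assigned libraries. Their genome-wide log2 ratio of TTTAAA over other TTAA sites was 0.89 and 0.89, against 0.94 to 0.97 in the assigned libraries.

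Of the 22 libraries, the share of insertions in the stretch with a single read ranged from 17.9% to 50.1% over the assigned ones and was 31.7% and 33.8% in the 2 others.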
